A study of Mus musculus with 6 samples.

Results

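The 9 genes described here encode 6 members of the STAT family of transcription factors (Stat2, Stat3, Stat4, Stat5a, Stat5b and Stat6) and 3 Janus kinases (Jak1, Jak2 and Jak3). They were taken by gene name from the 47643 reference genes listed in each deposited table, and each name matched 1 reference identifier. The names were chosen with earlier results of these data known. All 9 were among the 12186 genes with enough signal to be tested. Cytokine receptors have no kinase activity of their own. Janus kinases bound to the receptor tails phosphorylate the receptor and then STAT proteins, which pair, enter the nucleus and bind DNA. In regulatory T cells, IL-2 acts through Jak1, Jak3 and the STAT5 proteins, a route that upholds expression of Foxp3. IL-12 acts through Jak2 and STAT4, IL-6 through STAT3, IL-4 through STAT6, and type I interferons through complexes that contain STAT2.

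The cells were natural regulatory T cells (nTregs) from the spleens of C57BL/6 mice of the Foxp3-DTR/EGFP genotype, in which cells that express Foxp3 carry a diphtheria toxin receptor and green fluorescent protein. All cells, controls included, were first activated for 2 days by antibodies to CD3 and CD28 together with IL-2, so the IL-2 route had been engaged in both groups. They then received DMSO vehicle (3 libraries) or else an EP4 agonist at 100 nM (EP4 is a prostaglandin E2 receptor that raises cyclic AMP) (3 libraries), for 6 h, and were sorted by their green fluorescence before RNA extraction. The labels do not give the age or sex of the mice, nor whether the replicates of a group are different animals or cultures, so the p-values reflect the spread between libraries, which may be technical.

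By the ratio of the deposited coverage to FPKM, the libraries rest on 4.32 to 5.65 gigabases of aligned sequence, with 11947 to 12259 reference genes at or above 1 FPKM, the fragment count scaled to transcript length and library size, in each. The 5 Treg markers were all present and summed to 1612 to 1889 FPKM with vehicle and 2102 to 2205 FPKM with the agonist, without overlap. In limma's test with the replicate number as a block, Tnfrsf18 and Ikzf2 rose at an adjusted p under 0.05, as did 4.09% of all tested genes. Ctla4 was higher without overlap but did not pass (limma, adjusted p = 0.0711 with the block). The defining genes Foxp3 (132 ± 22.05 FPKM with vehicle and 135 ± 16.6 with the agonist) and Il2ra (848 ± 69.2 and 850.3 ± 78.1 FPKM) overlapped between the groups and did not pass (SD, n = 3). The part of this shift in the results on the 9 genes was not tested. The 4 general T cell markers summed to 820 to 927 FPKM in all libraries. Among them Trac was lower without overlap, at 422 ± 32.0 FPKM with vehicle and 364 ± 20.4 with the agonist (SD, n = 3). Trac did not pass (limma, adjusted p = 0.0717 with the block). The 2 CD8 T cell markers summed to 3.89 to 5.43 FPKM with vehicle and 4.53 to 6.40 FPKM with the agonist. The 5 B cell markers summed to 5.64 to 5.93 FPKM under vehicle and 3.69 to 6.20 FPKM under the agonist. The only one of them tested, Cd79b, was lower without overlap at 4.90 ± 0.271 and 3.73 ± 0.760 FPKM (SD, n = 3) and did not pass. The sums were at most 1.004 FPKM for the myeloid and 0.241 FPKM for the NK cell markers in any library, with Klra8 at 0 in all. The 4 haemoglobin genes of red cells summed to 2.84 to 8.03 FPKM with vehicle and 1.199 to 4.14 FPKM with the agonist. Of the 2 that were tested, Hba-a1 fell with the block, and Hba-a2 was lower without overlap but did not pass (limma, adjusted p = 0.0368 and 0.0564 with the block). In bulk RNA, fewer cells that express a gene and less of its RNA per cell cannot be told apart.

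Transcripts of Stat4, Jak2, Stat3 and Stat5b were higher after EP4 agonist without overlap between the groups, and hence in every replicate pair. Stat2, Stat5a, Stat6, Jak1 and Jak3 overlapped. Mean FPKM was 2.92 times the vehicle mean for Stat4, 1.53 times for Jak2, 1.36 times for Stat3 and 1.30 times for Stat5b. The Stat4 value includes agonist replicate 1, which stood far above the other agonist libraries. By the scaled coverage described below, the Stat4 ratio was 2.07. None of the 9 passed limma's test over all genes without the replicate number in the model, although 4 had an unadjusted p under 0.05. That test called 0.394% of tested genes, and 14.0% had an unadjusted p under 0.05. With the replicate number as a block, Stat4, Jak2, Stat3 and Stat5b passed as higher and 0 members passed as lower, against 4.09% and 6.41% of all tested genes, or 10.5% in either direction. At an unadjusted p under 0.05 that fit had 5 members higher and 0 lower, against 10.8% and 19.0% of all tested genes. The 4 members without overlap and higher compare with 7.27% of tested genes, and the 0 members without overlap and lower with 12.1%. The median log2 fold change of (FPKM + 1) was 0.16 over the 9 members and -0.03 over all tested genes. Here "passed" and "rose" refer to an adjusted p under 0.05, and fold changes are on the log2(FPKM + 1) scale, which understates changes of low values.

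**Figure D1:**
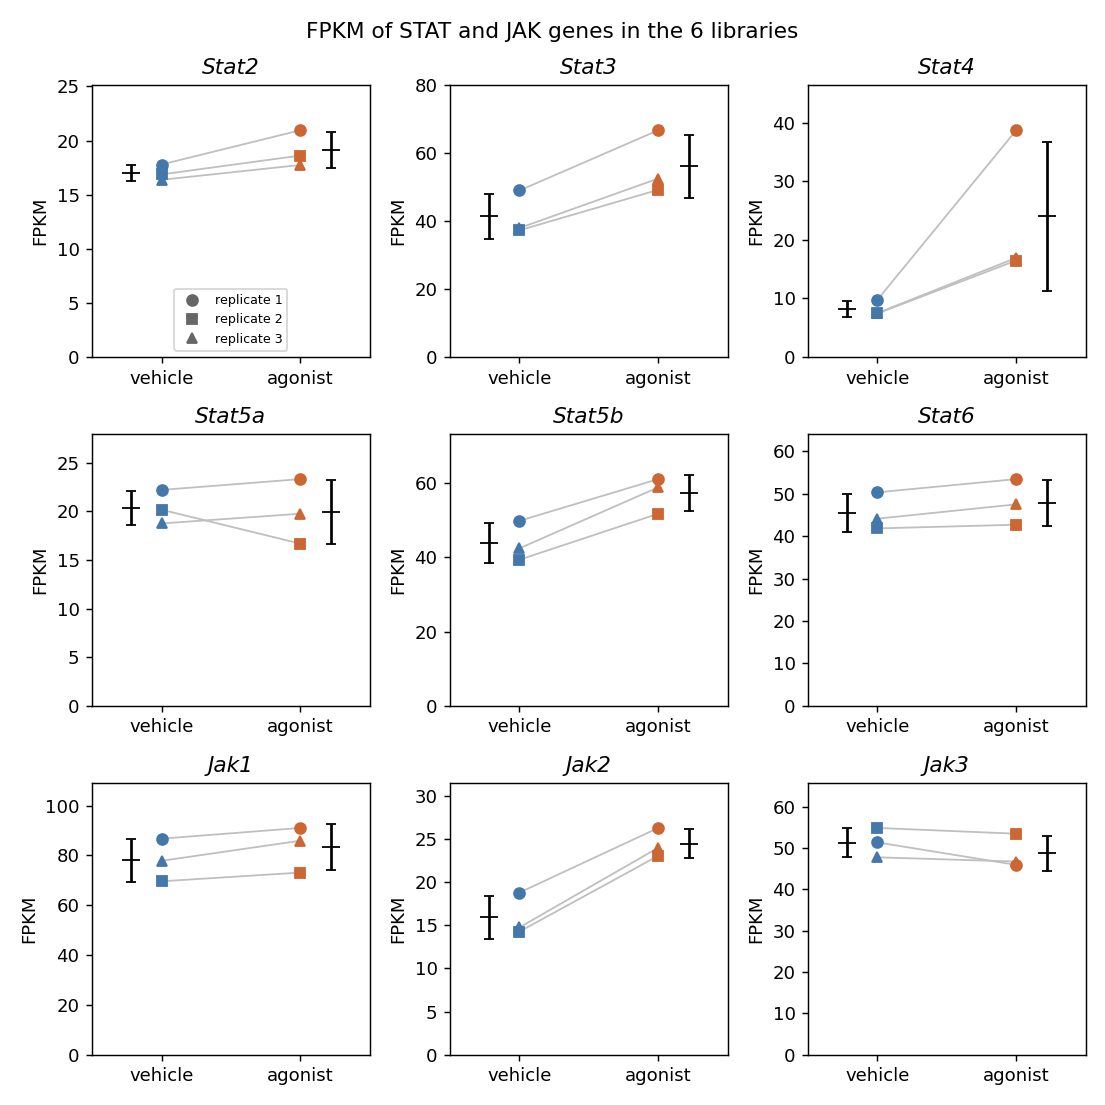
FPKM (vertical axes, from 0) of the 9 genes in 3 vehicle and 3 agonist libraries. Symbols mark the replicate number, grey lines join libraries with the same number, and black bars show the mean and SD of each group. In the panels of Stat4, Jak2, Stat3 and Stat5b every agonist point is above every vehicle point.

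**Figure D2:**
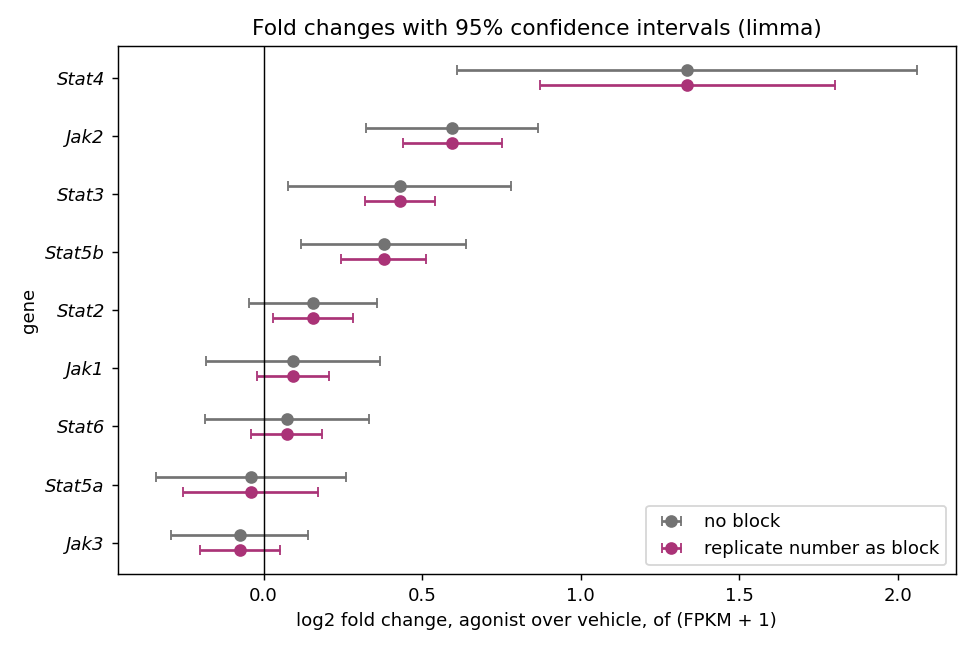
Log2 fold change of (FPKM + 1), agonist over vehicle, with 95% confidence intervals from limma, without (grey) and with (purple) the replicate number as a block. The intervals of Stat4, Jak2, Stat3 and Stat5b lie above 0 in both fits before adjustment over genes, and those of Stat6, Jak1, Stat5a and Jak3 include 0.

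Among the kinases, Jak2, which serves the receptors of IL-12, interferon gamma and several other cytokines, differed most. Jak2 (ENSMUSG00000024789.12, chromosome 19, 29251828 to 29313080, mm10, plus strand) had 18.8, 14.3 and 14.8 FPKM in vehicle replicates 1, 2 and 3 and 26.3, 23.1 and 24.0 FPKM in the agonist replicates. The lowest agonist library was above the highest vehicle library. The log2 fold change was 0.59, standard error 0.12, with an adjusted p of 0.109 in limma without the block and 0.0174 with it. Over the alternatives the adjusted p ranged from 0.00289 to 0.355, and without vehicle replicate 1, the highest vehicle library, Jak2 passed without the block (limma, log2 fold change 0.71, adjusted p = 0.0245). The blocked call held without pair 1 (limma, adjusted p = 0.0411) and was lost without pair 2 or 3 (0.101 and 0.0948). By pair the ratio of agonist to vehicle FPKM was 1.40, 1.62 and 1.63.

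Jak1, which works beside Jak3 on receptors that hold the common gamma chain and beside other kinases on interferon and IL-6 family receptors, differed by less than its spread. Jak1 (ENSMUSG00000028530.14, chromosome 4, 101152367 to 101265282, minus strand) had 86.7, 69.6 and 77.8 FPKM under vehicle and 91.1, 73.1 and 85.9 FPKM under the agonist. Each agonist library was slightly above the vehicle library of the same number, with ratios of 1.05, 1.05 and 1.10. The log2 fold change was 0.09 (95% interval -0.18 to 0.37; limma, adjusted p = 0.771, and 0.234 with the block). Jak3, the kinase bound to the common gamma chain, is the gene on chromosome 8 from 71676296 to 71690575 (ENSMUSG00000031805.17, plus strand). Its values were 51.4, 54.9 and 47.8 FPKM under vehicle and 45.9, 53.5 and 46.7 FPKM under the agonist. The groups overlapped, and the log2 fold change was -0.08 (95% interval -0.29 to 0.14; limma, adjusted p = 0.766, and 0.365 with the block). The last 1362 bases of Jak3 are shared on the same strand with Insl3, which was listed at 8.93 to 13.9 FPKM.

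As a share of the summed FPKM of the 3 kinases, Jak2 made up 11.98, 10.3 and 10.5% in the vehicle libraries and 16.1, 15.4 and 15.3% in the agonist libraries. Jak3 made up 32.7, 39.5 and 34.0% with vehicle and 28.1, 35.7 and 29.8% with the agonist, and Jak1 stood near 53% in both groups. The Jak2 share was higher in every agonist library than in any vehicle library, while the Jak3 share was lower in each pair with overlapping groups. The shares are a description and were not tested.

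RefSeq's promoter table (GRCm38.p6, the build called mm10) holds a window from 250 bases before to 50 bases after the start for all 9 genes, 12 windows in all. Each was searched on both strands for the cyclic AMP response element (CRE, TGACGTCA), for its shorter core TGACG, for the STAT site TTCNNNGAA, and for AAANNGAAA, the core of the interferon-stimulated response element, which was added after the windows had been read. Of 32851 windows in the table, 1.79% hold the full CRE, 20.8% the core TGACG, 8.30% the STAT site and 10.6% the interferon core. Every full CRE also contains the core, which the shares include. Of the 12 windows 1 holds the full CRE (Jak1), 4 hold the core (Jak1, Stat4, Stat5a and Stat6), 0 the STAT site and 3 the interferon core (Stat2, Stat4 and Stat5b). The windows of Jak1 and Jak2 are shown because they set the member with a full CRE beside the kinase gene that rose with the block. They are given 5′ to 3′ with motif matches in capitals, and end 20 bases past the outermost annotated start:
Jak1, chr4:101265263-101265473, minus strand: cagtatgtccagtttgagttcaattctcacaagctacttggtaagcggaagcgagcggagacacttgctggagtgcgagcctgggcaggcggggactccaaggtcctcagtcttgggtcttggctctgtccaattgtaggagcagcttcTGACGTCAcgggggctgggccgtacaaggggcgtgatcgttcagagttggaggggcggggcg
Jak2, chr19:29251553-29251822, plus strand: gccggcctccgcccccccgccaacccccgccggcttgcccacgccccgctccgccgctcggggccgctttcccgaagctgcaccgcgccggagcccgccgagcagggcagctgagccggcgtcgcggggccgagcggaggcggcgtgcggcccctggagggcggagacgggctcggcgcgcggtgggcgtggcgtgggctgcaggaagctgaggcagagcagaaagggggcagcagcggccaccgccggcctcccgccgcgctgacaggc
The CRE of Jak1 begins 101 bases before the RefSeq start. The Jak2 window, with 81.0% G and C, holds 0 matches to the 4 motifs. A match describes letters only and says nothing of binding.

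Stat4, which relays IL-12 signals and drives T helper 1 genes, had the largest fold change of the 9. Stat4 (ENSMUSG00000062939.11, chromosome 1, 51987148 to 52107189, plus strand) had 9.78, 7.44 and 7.504 FPKM under vehicle and 38.7, 16.5 and 16.9 FPKM under the agonist. All agonist libraries were above all vehicle libraries, and agonist replicate 1 stood far above the other two. The log2 fold change was 1.34 and did not pass (limma, standard error 0.31, adjusted p = 0.153). The block left this value as it was and lowered its standard error to 0.18 (limma, adjusted p = 0.0241). Without agonist replicate 1 the log2 fold change was 0.95 (limma, adjusted p = 0.0930). Under the block, Stat4 passed without pair 1 (1.06; limma, adjusted p = 0.0338) but not without pair 2 (1.48, adjusted p = 0.104) or pair 3 (1.47, adjusted p = 0.122).

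The deposited coverage of Stat4 did not show the gap of agonist replicate 1. Coverage, read here as the mean depth per base of the gene, was scaled to an equal sum in each library. For Stat4 it was 12.8, 9.84 and 9.92 with vehicle and 22.9, 21.1 and 23.3 with the agonist, so the agonist libraries lay close together and all above vehicle. Mean scaled coverage was 2.07 times higher with the agonist, and on coverage Stat4 passed without the block (limma, log2 fold change 0.99, standard error 0.11, adjusted p = 0.0173) and with it (limma, adjusted p = 0.00153). Over all alternatives the adjusted p of Stat4 ranged from 0.00153 to 0.416 and the log2 fold change from 0.95 to 1.54. On coverage 0.788% of tested genes passed without the block, and 6.61% passed as higher with it. Genes with a single quantified transcript share 1 ratio of coverage to FPKM within a library. Stat4 stood at 96.6, 97.6 and 96.4% of that ratio in the vehicle libraries and at 97.3 and 98.2% in agonist replicates 2 and 3, but at 43.1% in agonist replicate 1. Why this library differs was not tested.

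A further measure comes from loci that the authors' program assembled from each library's own reads, which the tables list beside the reference genes. These rest on the same reads and are no independent sample. Only loci that cover a set minimum share of a gene's span were read. On the Stat4 strand, 5 libraries held a pair of such loci within the gene, and agonist replicate 1 held a single locus over the same stretch. The loci had 24.5 and 25.7 FPKM in vehicle replicate 1, 19.9 and 19.6 in vehicle replicate 2, and 19.7 and 19.6 in vehicle replicate 3. They had 42.0 and 44.4 FPKM in agonist replicate 2 and 47.5 and 43.2 in agonist replicate 3, and the single locus of agonist replicate 1 had 40.7 FPKM. Taking the higher locus in each library, the mean was 21.8 ± 3.44 FPKM under vehicle and 44.2 ± 3.43 FPKM under the agonist (SD, n = 3 per group), 2.03 times higher. A reference model on the same strand, Gm28177 (52077261 to 52156087), shares 29929 bases with Stat4 and extends past its end. It was listed at 49.6 to 74.2 FPKM, so reads of the shared stretch may have been divided between both models. Gm28177 had 58.7 ± 9.14 FPKM under vehicle and 65.6 ± 8.45 FPKM under the agonist (SD, n = 3) and did not pass (limma, adjusted p = 0.655, and 0.0839 with the block).

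**Figure D3:**
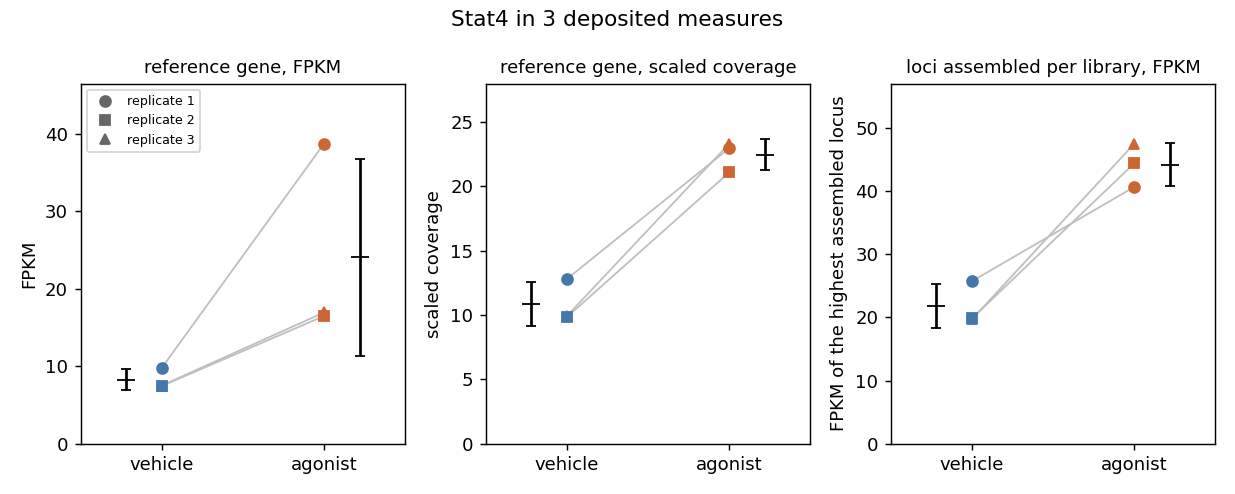
Stat4 in the 6 libraries by FPKM of the reference gene (left), by coverage of the reference gene scaled to an equal sum per library (middle) and by FPKM of the highest locus assembled from each library within the gene (right). Symbols mark the replicate number, and black bars give mean and SD. Agonist replicate 1 stands apart at 38.7 FPKM on the left only, and the agonist libraries are above the vehicle libraries in each panel.

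The assembled loci of Stat4 began downstream of its annotated start. GENCODE M21 lists a coding transcript from 51987148 and another from 52008243, and RefSeq has windows at both starts. GENCODE also lists a Stat4 transcript with a retained intron from 52008626. In the 6 libraries the upstream end of the assembled locus was at 52008243 (agonist replicate 1), 52008600 (agonist replicate 2) or 52008626 (the other 4). The last position is also the start of the transcript with a retained intron. None of the loci read began at the upstream start, but a short locus there would not have been read. Both windows are shown, with motif matches in capitals, since the assembled loci begin near the downstream one:
Stat4 upstream, chr1:51986898-51987167, plus strand: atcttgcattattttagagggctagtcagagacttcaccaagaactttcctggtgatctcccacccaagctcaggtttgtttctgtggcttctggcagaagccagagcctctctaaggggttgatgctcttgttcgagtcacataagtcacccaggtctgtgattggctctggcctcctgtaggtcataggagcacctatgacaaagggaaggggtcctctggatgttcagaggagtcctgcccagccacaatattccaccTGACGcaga
Stat4 downstream, chr1:52007990-52008259, plus strand: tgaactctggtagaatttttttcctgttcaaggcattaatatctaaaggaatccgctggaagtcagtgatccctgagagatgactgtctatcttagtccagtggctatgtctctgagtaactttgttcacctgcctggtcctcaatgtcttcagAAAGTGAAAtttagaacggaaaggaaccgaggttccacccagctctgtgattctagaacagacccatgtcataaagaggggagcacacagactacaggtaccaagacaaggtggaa
The upstream window holds the core TGACG just past the start, and the downstream window holds the interferon core 96 bases before the start and neither form of the CRE.

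Stat3, the factor of IL-6, IL-10 and IL-21 signals, and Stat5b lie in 1 cluster with Stat5a on chromosome 11. Stat3 (ENSMUSG00000004040.16, 100885098 to 100939540, minus strand) had 49.0, 37.3 and 38.0 FPKM under vehicle and 66.8, 49.2 and 52.5 FPKM under the agonist. Replicate 1 was the highest library in both groups, and the lowest agonist value was just above the highest vehicle value. The ratios within pairs were close to each other at 1.36, 1.32 and 1.38. The log2 fold change was 0.43, standard error 0.15, and did not pass (limma, adjusted p = 0.285). Under the block, with a standard error of 0.04, Stat3 rose (limma, adjusted p = 0.0174, ranging from 0.00469 to 0.648 over the alternatives). Leaving out pair 1, 2 or 3 ended that call (limma, adjusted p = 0.0503, 0.101 and 0.102).

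Stat5b and Stat5a encode closely related proteins that carry the IL-2 signal. Stat5b (ENSMUSG00000020919.11, 100780731 to 100850724, minus strand) had 49.8, 39.4 and 42.4 FPKM under vehicle and 61.1, 51.7 and 58.8 FPKM under the agonist. The groups did not overlap, and the ratios within pairs were 1.23, 1.31 and 1.39. The log2 fold change was 0.38, standard error 0.11, with a limma adjusted p of 0.215, or 0.0246 under the block and 0.00809 to 0.559 over the alternatives. The blocked call was lost without pair 1, 2 or 3 (limma, adjusted p = 0.0503, 0.122 and 0.131). Stat5a (ENSMUSG00000004043.14, 100859351 to 100885169, plus strand) had 22.2, 20.2 and 18.8 FPKM under vehicle and 23.3, 16.7 and 19.8 FPKM under the agonist. It overlapped between the groups and was lower in pair 2 only, with a log2 fold change of -0.04 (95% interval -0.34 to 0.26; limma, adjusted p = 0.924, and 0.785 with the block). On coverage and after quantile normalization the sign for Stat5a turned positive, at 0.019 and 0.0021. Stat5a and Stat3 share 72 bases on opposite strands. The strand setting of the quantification is not given in the sources used here, so reads of that stretch may not have been told apart.

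The ratio of Stat5b to Stat5a FPKM was 2.24, 1.95 and 2.26 with vehicle and 2.62, 3.10 and 2.98 with the agonist. The agonist libraries were above all vehicle libraries in this ratio. By coverage the ratio was 3.16, 2.95 and 2.97 with vehicle and 3.55, 4.19 and 4.07 with the agonist, and by the assembled loci 1.25, 1.31 and 1.15 against 1.36, 1.68 and 1.55. The separation thus appeared in each measure, while the size of the ratio depended on the measure. A ratio of members was not tested, so the genes are not shown to differ from each other in response.

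**Figure D4:**
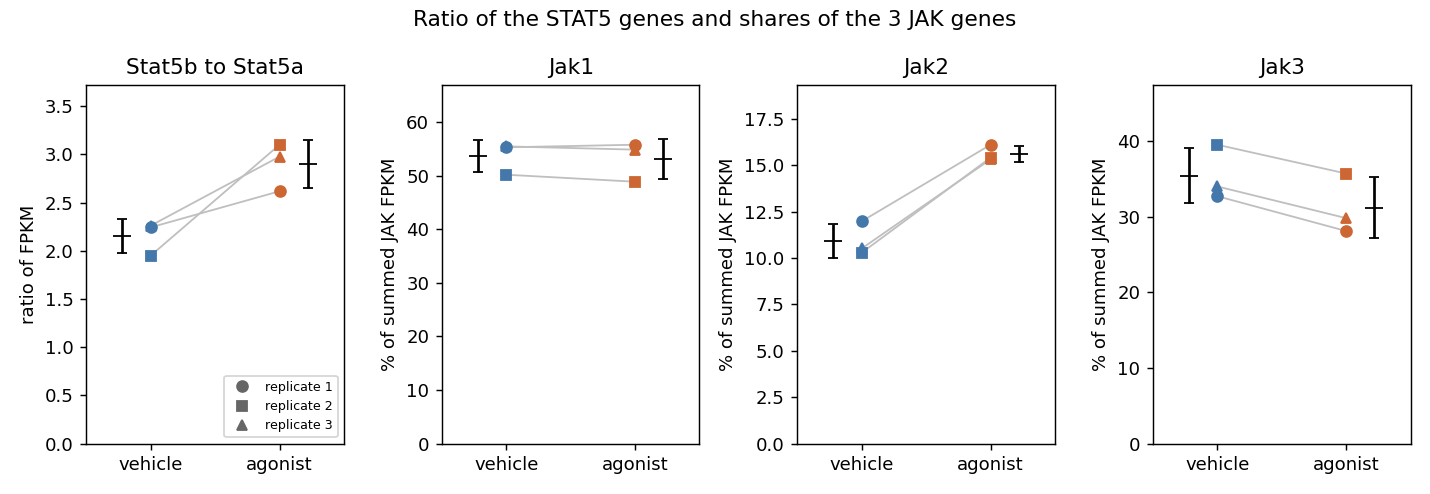
Ratio of Stat5b to Stat5a FPKM (left) and percent of the summed FPKM of the 3 Janus kinase genes held by Jak1, Jak2 and Jak3 in each library. Symbols mark the replicate number, lines join equal numbers and black bars give mean and SD. The Stat5b to Stat5a ratio and the Jak2 share are higher in all agonist libraries than in any vehicle library.

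Stat6, the factor of IL-4 signals, and Stat2, the partner in the interferon response complex, showed smaller differences. Stat6 (ENSMUSG00000002147.18, chromosome 10, 127642986 to 127660957, plus strand) had 50.3, 41.8 and 44.1 FPKM under vehicle and 53.5, 42.7 and 47.5 FPKM under the agonist. The groups overlapped, though each agonist library was above its vehicle partner, and the log2 fold change was 0.07 (95% interval -0.19 to 0.33; limma, adjusted p = 0.819, and 0.328 with the block). Stat2 (ENSMUSG00000040033.15, chromosome 10, 128270576 to 128292849, plus strand) had 17.8, 16.9 and 16.4 FPKM under vehicle and 20.95, 18.6 and 17.7 FPKM under the agonist. The lowest agonist library was just under the highest vehicle library. The log2 fold change was 0.16 (95% interval -0.04 to 0.36; limma, adjusted p = 0.462), and with the block 0.03 to 0.28 (limma, adjusted p = 0.113). The Stat2 window is shown for its match to the interferon core, in capitals and read on the opposite strand, 222 bases before the start:
Stat2, chr10:128270248-128270517, plus strand: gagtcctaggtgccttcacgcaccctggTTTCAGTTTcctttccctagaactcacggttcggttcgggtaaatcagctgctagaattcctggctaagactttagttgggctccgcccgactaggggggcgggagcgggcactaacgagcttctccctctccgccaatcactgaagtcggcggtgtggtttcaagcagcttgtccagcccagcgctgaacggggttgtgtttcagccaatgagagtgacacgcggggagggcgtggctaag
The Stat2 window holds neither form of the CRE.

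In level, Jak1 had the highest mean FPKM over the 6 libraries at 80.7, and its range did not overlap that of any other member. Stat5b (50.5), Jak3 (50.01), Stat3 (48.8) and Stat6 (46.7) followed with ranges that overlapped from neighbour to neighbour. Jak2 (20.2), Stat5a (20.2), Stat2 (18.1) and Stat4 (16.1) formed a lower set, again with overlapping neighbours, and all 6 libraries placed Stat6 above Jak2. The members stood above 64.2 to 93.2% of tested genes in mean FPKM. By mean vehicle FPKM Jak2 was 8th and Stat4 9th of the 9, and by mean agonist FPKM Jak2 was 6th and Stat4 7th. Without agonist replicate 1, Stat4 had a mean agonist FPKM of 16.7 and was 9th, and Jak2 was still 6th. The order depends on the measure: by mean scaled coverage Stat5b was highest at 63.3 and Jak1 was 4th at 36.99. Stat5a stood at 35.8 ± 5.11 FPKM in the vehicle libraries by its assembled loci (SD, n = 3), above its reference value of 20.4 ± 1.73 FPKM. Stat4, by its higher assembled locus, stood at 21.8 ± 3.44 FPKM with vehicle (SD, n = 3), against 8.24 ± 1.34 by reference. By that measure it was above Jak2 (16.0) and Stat2 (17.0), so Stat4 was not the lowest there. With the agonist Stat4 stood at 44.2 FPKM, above Stat5a (38.2), Jak2 (24.5) and Stat2 (19.1).

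The genes whose log2(FPKM + 1) values followed Stat4 most closely over the 6 libraries were Tmtc2, Gimap1 and Gadd45a, with Pearson correlations of 0.994, 0.993 and 0.989. These are the highest among all tested genes and are given as a description. They rest on the FPKM of Stat4, in which agonist replicate 1 stood apart, a gap that its coverage did not show.

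Genes around the pathway were described from lists compiled from general knowledge, with earlier results of these data known. Of 32 receptor chains that signal through Janus kinases, 21 were tested. Without the block 1 rose and 0 fell, while under the block 5 rose and 2 fell. Their median log2 fold change was 0.08. Over all tested genes it was -0.03, and limma's test called 0.394% without the block. Under the block 4.09% of all tested genes rose and 6.41% fell. The gene that rose in both fits was Il12rb2, the IL-12 receptor chain that docks STAT4, with 4.91, 4.48 and 3.27 FPKM under vehicle and 11.4, 12.7 and 10.5 FPKM under the agonist (limma, log2 fold change 1.27, adjusted p = 0.0205, and 0.0142 with the block). Its partner chain Il12rb1, named after its values were seen, had 29.4, 30.8 and 25.2 FPKM under vehicle and 23.9, 25.6 and 21.1 FPKM under the agonist, and was 1 of the 2 that fell with the block (limma, adjusted p = 0.0324, and 0.341 without it). Ifngr1, the ligand-binding chain for interferon gamma, had 162 ± 16.0 FPKM under vehicle and 275 ± 34.6 FPKM under the agonist (SD, n = 3; limma, adjusted p = 0.0642, and 0.0166 with the block). Ifnar1, a chain of the type I interferon receptor, had 33.1 ± 4.90 and 43.6 ± 6.94 FPKM (SD, n = 3; limma, adjusted p = 0.306, and 0.0191 with the block), and Il7r also rose with the block. Il2rb and Il2rg, the signalling chains of the IL-2 receptor, had 475 ± 19.7 and 198 ± 14.0 FPKM under vehicle and 558 ± 35.6 and 195 ± 22.4 FPKM under the agonist (SD, n = 3), and neither passed (limma, adjusted p = 0.321 and 0.948, and 0.0768 and 0.794 with the block). Both were named because the culture contained IL-2.

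All 19 listed negative regulators of the pathway were tested. Without the block 0 passed in limma's test, and 4 had an unadjusted p under 0.05, against 14.0% of all tested genes. With the block 0 rose and 2 fell, and the median log2 fold change was 0.04. The 2 of 19 called with the block (10.5%) are the same share as over all tested genes (10.5%), so the count is no result about these regulators. Those 2 were Socs2, a feedback inhibitor induced by STAT5, and Ptpn6, which encodes the phosphatase SHP-1. Socs2 had 178, 184 and 200.3 FPKM under vehicle and 139, 140 and 135 FPKM under the agonist (limma, adjusted p = 0.0956, and 0.0248 with the block). Ptpn6 had 69.6, 83.8 and 81.3 FPKM under vehicle and 56.9, 57.6 and 56.5 FPKM under the agonist (limma, adjusted p = 0.118, and 0.0266 with the block). In both genes every agonist library was below every vehicle library. Of the 19 regulators, 3 were lower without overlap and 2 higher, against 12.1% and 7.27% of all tested genes. These counts, too, are no result about the regulators.

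Lists of genes assigned to each STAT factor from general knowledge differed in their counts. Over all tested genes, 0.394% passed limma's test without the block, and 14.0% had an unadjusted p under 0.05. With the block 4.09% rose and 6.41% fell, and the median log2 fold change was -0.03. Of 5 tested genes on the STAT4 list, 1 rose, while under the block 4 rose and 0 fell, and the median log2 fold change was 0.41. Besides Il12rb2, which both lists hold, these were Il18rap and Il18r1, the chains of the IL-18 receptor, and Furin, a protein convertase. Il18rap had 2.04, 2.00 and 1.92 FPKM under vehicle and 3.09, 4.10 and 3.40 FPKM under the agonist (limma, adjusted p = 0.111, and 0.0334 with the block). Il18r1 had 8.24 ± 1.43 and 11.2 ± 1.18 FPKM, and Furin 17.9 ± 2.97 and 21.8 ± 2.84 FPKM (SD, n = 3 per group). Of 6 tested genes on the STAT6 list, 0 passed limma's test without the block, though all 6 had an unadjusted p under 0.05. With the block 5 rose, and the median was 0.41. They included Gata3, the factor of T helper 2 cells, with 45.8, 40.4 and 39.3 FPKM under vehicle and 65.9, 55.7 and 49.4 FPKM under the agonist (limma, adjusted p = 0.198, and 0.0219 with the block), and the chemokine receptor gene Ccr4, with 65.0 ± 10.97 and 85.6 ± 11.8 FPKM (SD, n = 3). Ccr8 and Crem were also among them. Crem is a known target of cyclic AMP, and whether it responds to STAT6 here was not tested.

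All 17 genes of the STAT5 list were tested, and 0 passed limma's test without the block. An unadjusted p under 0.05 was found for 8 of them, against 14.0% of all tested genes. Under the block 3 rose and 4 fell, against 4.09% and 6.41% of all tested genes, and the median log2 fold change was 0.05. Tnfrsf4 and Gzmb, encoding OX40 and granzyme B, were among those that rose, and Lta and Pim1 among those that fell. Gzmb had 108 ± 53.7 FPKM under vehicle and 173 ± 77.7 FPKM under the agonist (SD, n = 3). It was higher in each pair with overlapping groups (limma, adjusted p = 0.574, and 0.0199 with the block). Pim1, a kinase gene induced by STAT5, had 314, 252 and 299.8 FPKM under vehicle and 248, 199 and 236 FPKM under the agonist, lower in each pair with overlapping groups (limma, adjusted p = 0.298, and 0.0243 with the block). Of 12 tested genes on the STAT3 list 1 rose, Hif1a, while under the block 3 rose and 1 fell, and the median was 0.02. The others were Bcl3 and Maf, which rose, and Batf, which fell. Of 9 tested interferon targets 0 passed limma's test without the block, with 2 at an unadjusted p under 0.05, and 1 rose with it. This is 11.1% of the list, near the 10.5% of all tested genes, and so no result about the list. The gene was Irf7, from 2.96 ± 0.107 to 4.25 ± 0.281 FPKM (SD, n = 3; limma, adjusted p = 0.158, and 0.0441 with the block). The lists share genes such as Il4ra and Socs2, and their counts are not independent of each other.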

How the data were processed

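RNA from 6 libraries, 3 per group as their titles give it, was sequenced. Per the submitters' processing notes, reads were trimmed with Trim Galore and aligned with HISAT2 to mm10. The strand setting, the quantification program and its annotation were not given in the sources used here. The authors deposited FPKM and coverage, a signal of mean depth per base, for each gene. The TPM column sums to 1901346 to 1930242 per library and was not used. Fragment counts are not in the tables, so no counting interval is given.

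FPKM of identifiers listed more than 1 time were summed. The 12186 genes that reached 1 FPKM in 3 libraries were tested on log2(FPKM + 1) with limma 3.58.1 (trend, robust) under R 4.3.3 and statmod 1.5.0. Benjamini-Hochberg adjustment covered all of them. Tables were handled in Python 3.11.15 with pandas 2.3.3 and numpy 2.4.6, and plots drawn with matplotlib 3.10.9.

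Replicate numbers 1 to 3 occur in both groups. Deviations from the group means correlated at 0.512, 0.404 and 0.321 for libraries of equal number and at -0.353 to 0.00197 otherwise, so equal numbers were treated as pairs. Deviations from a group mean cancel within the group, so positive values for equal numbers push the other values down. The latter are thus no separate evidence of pairing. The pairing is read from the data, not from the labels, which can make blocked p-values too small. The reported fit is without the block unless stated.

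Members and lists were chosen with earlier results of these data known. All 9 members are named. From each list up to 4 genes called with or without the block are named by smallest blocked p, and other names are marked. Alternatives covered the block, pseudocount, filter, scaling, coverage, variance model and leaving out libraries. Coverage with the block was added after seeing the data.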

Additional observations from a re-analysis of the deposited data

Results flagged for a closer look

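Loci assembled from each library's own reads were outside the main measurement, and for 4 members their FPKM was higher in every agonist library than in any vehicle library. The ratio of the agonist mean to the vehicle mean was 2.03 for Stat4, 1.53 for Jak2, 1.36 for Stat3 and 1.31 for Stat5b. For Jak2 the assembled loci had 18.9, 14.3 and 14.8 FPKM under vehicle and 26.5, 23.1 and 24.0 FPKM under the agonist. These loci rest on the same reads as the reference genes. For Jak2, Stat3 and Stat5b their ratios nearly repeat those of the reference genes, which were 1.53, 1.36 and 1.30, and so add little. The share of all genes with such a separation in assembled loci was not computed. The ratios of the other 5 members lay between 0.904 for Jak3 and 1.12 for Stat2, with overlapping groups.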

How the results depend on the processing

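Without the block, limma called 48 of all tested genes and 0 of the 9 members. The counts over all genes and over the members were 1279 and 4 with the replicate block, 997 and 4 with the block and quantile normalization, 2009 and 4 with the block on coverage, and 96 and 1 on coverage alone, where the member was Stat4. Over all genes the count was 2 with no filter on low FPKM and 75 with upper quartile scaling, with 0 members in both. Leaving out a library gave 0 to 133 genes and 0 to 1 members, and leaving out a pair with the block gave 0 to 241 genes and 0 to 2 members. The member called without vehicle replicate 1 was Jak2, and those called with the block without pair 1 were Jak2 and Stat4. The counts of 0 over all genes came on leaving out agonist replicate 2, vehicle replicate 2 or vehicle replicate 3, where limma gave 1606, 1033 and 1115 genes with unadjusted p below 0.05. The blocked fit lacking pair 2 also gave 0, with 2557 such genes. Without the block the only members to pass were Stat4 on coverage and Jak2 without vehicle replicate 1.

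Of 180 alternative values for single members, 156 kept direction and side of the threshold, 16 newly passed and 8 turned in sign. The sign of Stat5a turned under quantile normalization with and without the block (0.0021), on coverage with and without the block (0.019), without vehicle replicate 1 (0.020), without agonist replicate 2 (0.075) and with the block without pair 2 (0.069). Leaving out 1 library gave -0.16 to 0.075 for Stat5a. That of Stat6 turned without agonist replicate 1 (-0.0080), with -0.0080 to 0.15 on leaving out 1 library. The cause was not tested. Stat4, Jak2, Stat3 and Stat5b were higher under all 20 alternatives. As their groups did not overlap in FPKM, most of these alternatives could not have turned the sign. Stat4 had the lowest mean scaled coverage of the members with vehicle, at 10.8.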
